A study of Homo sapiens with 16 samples.

Results

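ARID1A peaks of unmodified HCT116 cells that also met a peak of H3K9me3 and a peak of SETDB1 in shCtrl cells numbered 5842 of 29576 ARID1A peaks on chromosomes 1 to 22 and X (19.8%). They were chosen by an overlap of at least 1 bp, in the lists called against input, and are called double-marked sites here. The ARID1A list and the shCtrl H3K9me3 and SETDB1 lists therefore chose them, and values of those 3 libraries at these sites are given as a description, with no test. The other 23734 ARID1A sites, used for comparison, comprised 2221 with H3K9me3 only, 2718 with SETDB1 only and 18795 with neither.

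HCT116 is an established human colon cancer cell line. ChIP-seq (chromatin immunoprecipitation followed by sequencing) was done in 3 cell states, with the stated purpose of relating ARID1A to heterochromatin. Unmodified cells, with no shRNA named in their labels, had ARID1A, H3K9me3 and TRIM28 libraries. Control cells (CTR in the labels, read as the shCtrl of the design text) had ARID1A, H3K9me3, TRIM28 and SETDB1 libraries, and shARID1A cells, in which a short hairpin RNA targets ARID1A, had H3K9me3, TRIM28 and SETDB1 libraries. With 1 library for each state and antibody there are no replicates, and no p-value is given. ARID1A precipitation in shARID1A cells was not analysed here, so loss of ARID1A was not checked. The shRNA sequences, and whether the shRNA cells were 1 clone or a pool, are not stated in the sources at hand. Sequencing depth is unknown. Shares of sites carry exact Clopper-Pearson 95% intervals and differences carry Newcombe 95% intervals. Both cover counting error only, since sites of 1 library are not replicates.

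ARID1A is the DNA-binding subunit of the BAF form of SWI/SNF, a complex that moves and evicts nucleosomes and works largely at enhancers. SETDB1 is a methyltransferase that places 3 methyl groups on lysine 9 of histone H3, and TRIM28 is the corepressor that brings it to targets of KRAB zinc finger proteins. H3K9me3, the product, is known for silenced repeats and for clusters of zinc finger genes, and is not a usual mark of active enhancers.

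Some libraries went against what their labels would lead a reader to look for. ARID1A sites of unmodified cells met the library labelled shCtrl H3K9me3 in 27.3% and the library labelled shCtrl SETDB1 in 28.9% of cases, and the shCtrl ARID1A library in 13.3%. H3K9me3 of unmodified cells was no more frequent at double-marked sites (2.23%) than at other ARID1A sites (2.33%). Only 43 of 108926 peaks of shCtrl ARID1A and 15 of 11374 of unmodified H3K9me3 had a q of at most 0.05. For shCtrl H3K9me3 and SETDB1 it was 6833 of 92063 and 37702 of 79404. For H3K9me3 and for TRIM28 the antibody product in the protocol is not the product in the sample characteristics. Results are therefore also given without each of the shCtrl libraries that chose the sites. These wider sets, 8560 sites without shCtrl H3K9me3 and 8063 without shCtrl SETDB1, contain all 5842 double-marked sites. They are thus not independent of the library left out.

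Promoter sequences show letters under a small part of the double-marked sites, the 164 that overlapped a promoter window. RefSeq promoter windows (GRCh38.p14, 300 bases, 250 before to 50 after a gene start) were searched for TGANTCA on both strands, with N as any base. AP-1, the FOS-JUN family of transcription factors, typically binds this pattern with C or G at N. The search is therefore wider than the usual AP-1 site, and all its matches are called AP-1 letters or AP-1 matches here. A double-marked site overlapped 173 windows of 160 genes, and 92 of them held the AP-1 letters (53.2%, interval 45.5% to 60.8%). Over all 34961 windows the share was 7.68%, and over 359 windows at other ARID1A sites it was 13.4%. The windows below are shown because they lie whole inside a double-marked site. They are the 4 protein-coding genes with the highest ARID1A fold among windows with a match and the 1 with the highest fold without one. They were chosen after the matches were seen. The 250 bases before the start are printed 5′ to 3′ in the direction of the gene, and capitals mark AP-1 matches.
MEF2C, chr5:88785512-88785761, minus strand: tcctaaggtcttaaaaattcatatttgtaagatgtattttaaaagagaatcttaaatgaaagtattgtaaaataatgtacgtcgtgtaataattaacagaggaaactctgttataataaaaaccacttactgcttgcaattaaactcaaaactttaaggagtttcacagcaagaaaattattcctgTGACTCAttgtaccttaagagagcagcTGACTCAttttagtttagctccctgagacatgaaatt
HRH1, chr3:11136988-11137237, plus strand: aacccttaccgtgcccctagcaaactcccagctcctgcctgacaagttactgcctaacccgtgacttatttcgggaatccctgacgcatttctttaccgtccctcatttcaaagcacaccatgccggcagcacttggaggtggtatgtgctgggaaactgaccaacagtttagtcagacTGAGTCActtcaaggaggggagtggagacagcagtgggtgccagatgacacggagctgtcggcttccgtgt
SMAD3, chr15:67125492-67125741, plus strand: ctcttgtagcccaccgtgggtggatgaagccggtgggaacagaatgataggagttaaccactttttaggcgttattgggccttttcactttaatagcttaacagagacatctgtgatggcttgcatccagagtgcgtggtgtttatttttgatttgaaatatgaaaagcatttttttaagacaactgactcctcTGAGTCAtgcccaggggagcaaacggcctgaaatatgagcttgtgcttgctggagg
BFSP1, chr20:17558834-17559083, minus strand: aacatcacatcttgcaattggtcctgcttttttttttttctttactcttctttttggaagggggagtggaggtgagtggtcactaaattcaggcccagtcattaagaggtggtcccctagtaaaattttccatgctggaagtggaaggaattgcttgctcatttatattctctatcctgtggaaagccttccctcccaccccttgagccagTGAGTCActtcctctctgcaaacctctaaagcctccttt
DNMBP, chr10:99930908-99931157, minus strand: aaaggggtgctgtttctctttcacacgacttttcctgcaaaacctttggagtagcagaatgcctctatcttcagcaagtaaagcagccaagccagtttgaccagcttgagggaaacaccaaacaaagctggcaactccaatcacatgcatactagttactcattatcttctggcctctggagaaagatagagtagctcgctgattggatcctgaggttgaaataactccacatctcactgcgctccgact

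MEF2C, a muscle and neuronal transcription factor, had 2 matches in its window, and its 1278 bp site had an ARID1A fold of 6.68. HRH1, the histamine H1 receptor, had 1 match under a 1421 bp site of fold 4.93. SMAD3, the signal transducer of TGF-beta receptors, had 1 match under a 2996 bp site of fold 4.88. BFSP1, a lens filament protein, had 1 match under a 2314 bp site of fold 4.05. DNMBP, an exchange factor for the small GTPase CDC42, had no AP-1 match under a 4024 bp site of fold 6.88. Of the 173 windows, 27 held at least 2 AP-1 matches.

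Windows at double-marked sites held the AP-1 letters more often than windows at other ARID1A sites, by 39.8 percentage points (interval 31.4 to 47.7). With only windows that the ARID1A site covered whole, the shares were 61.3% of 80 and 24.5% of 49, a difference of 36.8 points (19.3 to 50.8). Windows at ARID1A sites with SETDB1 only had the letters in 11.4% of 114, those with H3K9me3 only in 23.1% of 26 and those with neither in 13.2% of 219. Windows with shCtrl H3K9me3 and SETDB1 peaks but no ARID1A site had them in 28.2% of 362. GGAATG, the letters bound by TEAD factors of the Hippo pathway, was in 22.5% of windows at double-marked sites, 15.3% at other ARID1A sites and 14% of all windows. CCGGAAG, the letters bound by ETS factors, was in 3.47%, 11.1% and 10.3%. Base composition moved with these shares. The median number of CG dinucleotides was 4 in windows at double-marked sites, 11 at other ARID1A sites and 14 in all windows, and its part in the result was not tested. Windows of neighbouring starts can overlap, and with 1 window per gene the AP-1 difference was 39.3 points. A match is a description of letters, not of binding. Only 3.03% of double-marked sites with usable starts overlapped a window, so these letters describe a small part of them. Gene starts on chromosome 8 were not used here.

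**Figure D1:**
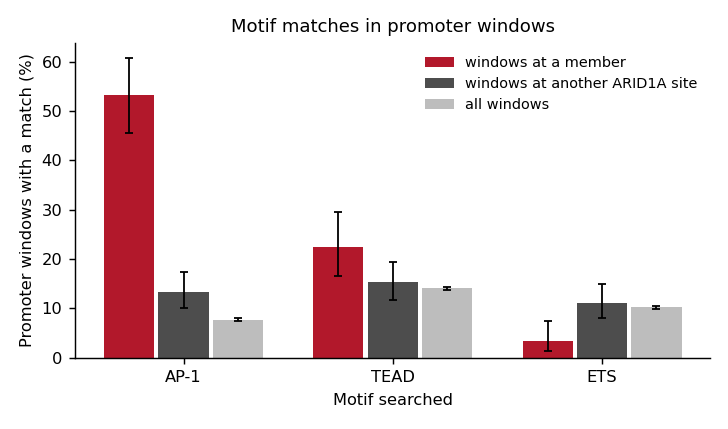
Share (%) of RefSeq promoter windows with a match to each motif, for 173 windows at double-marked sites (labelled members), 359 at other ARID1A sites and all 34961. Bars are shares and lines exact 95% intervals, and the AP-1 bar at double-marked sites (53.2%) stands above the other bars.

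Double-marked sites had a wider and slightly taller typical ARID1A peak, and most were neither strong nor wide. Their width had a median of 599.5 bp (quartiles 392 and 997, range 248 to 5541), and other ARID1A sites had a median of 322 bp (259 and 413, 248 to 2801). Fold enrichment is the authors' ratio of reads piled up at a peak over the local background, in a call against the named control. It had a median of 2.95 (range 1.59 to 8.43) at double-marked sites and 2.51 (1.28 to 6.19) at others. The ranges overlapped widely. Of 835 ARID1A peaks with a q of at most 0.05, called strong here, 742 were double-marked (88.9%), and of 1757 sites at least 1000 bp wide, 1459 were (83.0%). Seen from the double-marked sites, these were 12.7% and 25% of them. A wide site has more bases in which to meet another peak, and the rule thus bears on width. Sites with H3K9me3 only had a median of 370 bp and those with SETDB1 only 373 bp.

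**Figure D2:**
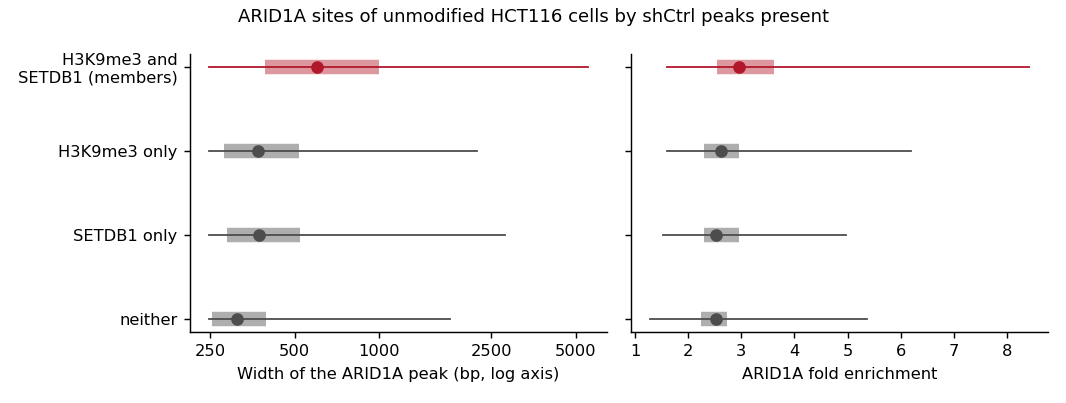
Width (bp, log axis) and fold enrichment of ARID1A peaks of unmodified cells, by the shCtrl peaks present. Points are medians, thick bars quartiles and thin lines the full range, and double-marked sites (median 599.5 bp, fold 2.95) reach the highest values on both axes.

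The 3 peaks of a double-marked site mostly sat on each other. All 3 shared at least 1 base at 5702 sites (97.6%). The shCtrl H3K9me3 peak covered a median of 59.1% of the ARID1A peak, with its summit a median of 167 bp from the ARID1A summit. The shCtrl SETDB1 peak covered a median of 65.4%, with its summit 176 bp away. The tallest shCtrl H3K9me3 peak at a site had a median fold of 4.23, against 2.76 over its whole list, and reached 16.7. The tallest shCtrl SETDB1 peak had a median of 4.42, against 3.48 over its list, and reached 40.8. Of strong peaks, 3588 of 6833 of shCtrl H3K9me3 (52.5%) and 4442 of 37702 of shCtrl SETDB1 (11.8%) lay at a double-marked site. Across the 5842 sites, which share their libraries and input, the shCtrl H3K9me3 and SETDB1 folds had a Spearman correlation of 0.43, and ARID1A fold and width 0.53. At the edge of the rule, 53 sites overlapped 1 of their 2 shCtrl peaks by at most 10 bp (median width 396 bp), and 59 sites missed the rule by at most 10 bp (430 bp). Against IgG, the other control, 80.0% of double-marked sites and 55.3% of other sites were met by an ARID1A peak. For shCtrl H3K9me3 and SETDB1 this was so at 92.5% of double-marked sites each. Where all 3 lists against IgG defined the sites, 7017 were found, and 71.0% of the 5842 sites met one of them.

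In shARID1A cells, H3K9me3 peaks were more frequent at double-marked sites than at other ARID1A sites against both controls. Peaks of the shARID1A H3K9me3 library called against input lay at 866 double-marked sites (14.8%, interval 13.9% to 15.8%), at 683 other ARID1A sites (2.88%) and at 5.24% of all ARID1A sites. The difference between double-marked and other sites was 11.9 points (11.0 to 12.9). Against IgG the shares were 64.3% and 15.4%, with 25% over all ARID1A sites, and the difference was 48.9 points (47.5 to 50.2). Within 5 groups of ARID1A sites by width the difference against input was 10.6 points (9.59 to 11.7). The widest group has no upper limit, so widths still differed within it. Counting only strong peaks, the shares were 4.30% and 0.771%. Without shCtrl H3K9me3 in the rule the difference was 11.1 points, and without shCtrl SETDB1 it was 9.27. Both of these wider sets contain all double-marked sites, so the values are not independent of the main difference. Each pair of these shares came from lists that share neither input nor IgG with the lists of the rule, as far as the list names tell.

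Among ARID1A sites with 1 of the 2 shCtrl marks, those with SETDB1 only had a shARID1A H3K9me3 peak in 9.38% of cases and those with H3K9me3 only in 4.50%. Double-marked sites lay above the former by 5.44 points (3.99 to 6.84) and above the latter by 10.3 (9.03 to 11.5). For strong peaks the difference from sites with SETDB1 only was 0.43 points (-0.50 to 1.29), an interval that holds 0. The fold of the shARID1A H3K9me3 peaks at double-marked sites ranged from 1.45 to 9.18 with a median of 2.83, and the median of the whole list was 3.15. Their summits lay a median of 162 bp from the ARID1A summit.

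TRIM28 of shARID1A cells was not more frequent at double-marked sites when called against input. Its peaks lay at 267 of them (4.57%, 4.05% to 5.14%), at 4.78% of other ARID1A sites and at 4.74% of all, a difference of -0.21 points (-0.79 to 0.41). Sites with SETDB1 only had such a peak in 5.78% of cases, and double-marked minus SETDB1 only was -1.21 points (-2.27 to -0.21). Strong peaks of that library were rare at ARID1A sites of either kind, with 0 double-marked sites and 18 of 23734 other sites (0.0758%). Against IgG the shares were 34.7% and 13.4%, with 17.6% over all ARID1A sites, a difference of 21.4 points (20.1 to 22.7). There, sites with SETDB1 only had 27.3%. Without shCtrl H3K9me3 in the rule the difference against input was 0.30 points (-0.23 to 0.85), and without shCtrl SETDB1 it was -0.43 (-0.95 to 0.12). The direction thus depends on the control, and which control gives the better measure was not tested.

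SETDB1 of shARID1A cells was found at few double-marked sites against input. Its peaks lay at 139 of them (2.38%, 2.0% to 2.80%), at 1.41% of other ARID1A sites and at 1.6% of all, a difference of 0.97 points (0.57 to 1.41). Sites with SETDB1 only had such a peak in 3.05% of cases, and double-marked minus SETDB1 only was -0.67 points (-1.48 to 0.05). A strong peak lay at 10 double-marked sites (0.171%), at 0.0758% of other ARID1A sites and at 0.515% of sites with SETDB1 only. Within 200 bp around the ARID1A summit the difference was 0.16 points (-0.12 to 0.50), an interval that holds 0. Without shCtrl H3K9me3 in the rule the difference was 1.39 points, and without shCtrl SETDB1 it was 0.80. Against IgG the shares were 43.7% and 14.5%, with 20.3% over all ARID1A sites, a difference of 29.2 points (27.9 to 30.6). There, sites with SETDB1 only had 31.5%. The lists against input differ in length, with 56886 shARID1A H3K9me3 peaks, 203714 TRIM28 peaks and 39245 SETDB1 peaks, and their shares are not compared with each other.

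**Figure D3:**
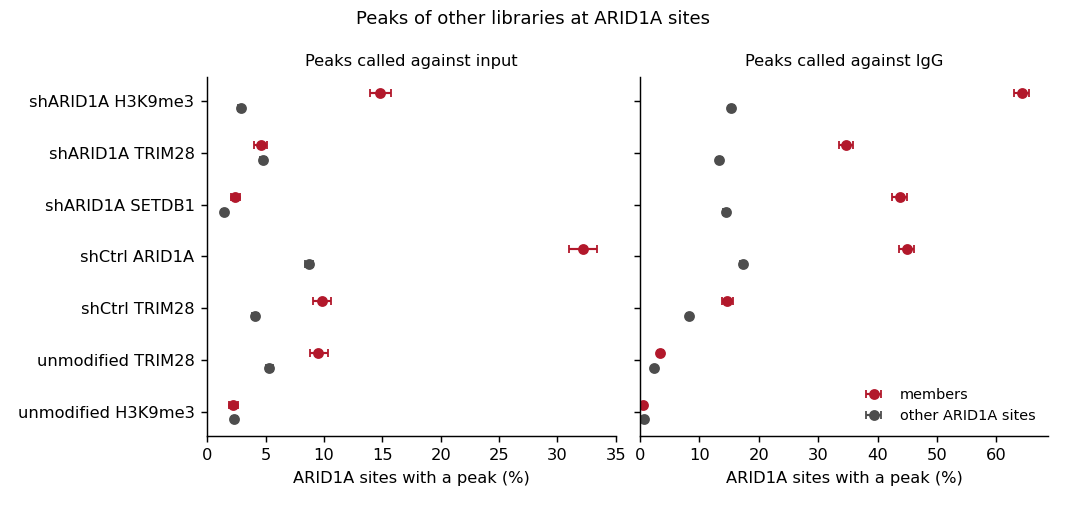
Share (%) of double-marked sites (labelled members, n = 5842) and of other ARID1A sites (n = 23734) with a peak of each library, for lists against input (left) and against IgG (right). Points are shares and lines exact 95% intervals, and shARID1A H3K9me3 and shCtrl ARID1A stand farthest apart between both kinds of site against input.

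Of the 5842 double-marked sites, 4736 (81.1%) had no peak of any shARID1A library against input. At least 1 of the 3 was present at 1106 sites (18.9%, 17.9% to 20.0%), at 8.2% of other ARID1A sites and at 10.3% of all. H3K9me3 alone was present at 726 sites (12.4%, against 2.26% of other sites). TRIM28 alone was present at 164 (2.81%, against 4.19% of other sites), and SETDB1 alone at 66 (1.13%, against 0.978%). TRIM28 with H3K9me3 but without SETDB1 was at 1.32%, against 0.341% of other sites. With or without the other 2, TRIM28 was at 4.57% and 4.78%, so the share of TRIM28 alone does not measure TRIM28 as a whole. All 3 libraries had a peak at 16 sites (0.274%), against 0.128% of all ARID1A sites and 0.478% of sites with SETDB1 only. Against IgG, 78.4% had at least 1 of the 3 (40.5% of all ARID1A sites) and 17.9% had all 3 (5.5% of all, 8.98% with SETDB1 only). The number of double-marked sites with no peak of the 3 was thus 4736 against input and 1263 against IgG. An absent peak means that none was called, not that a mark was lost.

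By distance, shARID1A H3K9me3 was centred on the ARID1A summit. At the summit, 7.65% of double-marked sites and 1.41% of other sites lay under a peak against input. At 1000 bp to either side the shares of double-marked sites were 0.856% and 0.805%. Against IgG they were 38.4% at the summit (8.05% of other sites) and 8.49% and 9.14% at 1000 bp. TRIM28 had no such centre against input (1.34% at the summit, 1.42% and 1.78% at 1000 bp), and other sites had 2.14% at the summit. It had one against IgG (13.4%, 8.34% and 8.83%), where other sites had 6.10% at the summit. SETDB1 stood at 0.839% at the summit against input (other sites 0.607%) and at 18.8% against IgG (other sites 6.96%).

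**Figure D4:**
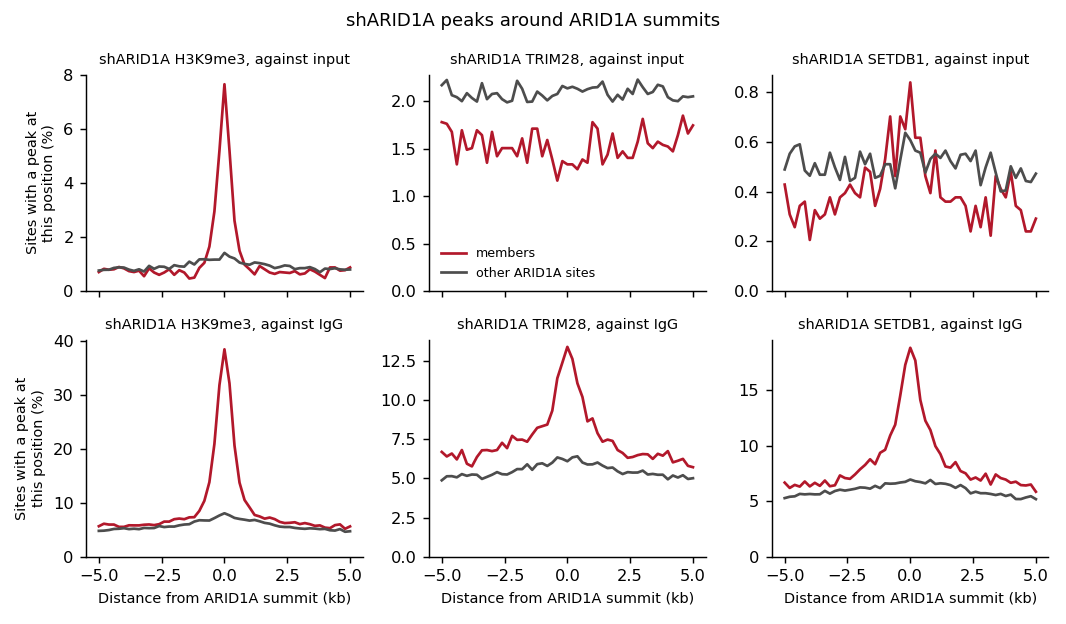
Share (%) of double-marked sites (labelled members) and other ARID1A sites that lie under a shARID1A peak, by distance (kb) from the ARID1A summit in steps of 200 bp, for lists against input (top) and IgG (bottom). The H3K9me3 curve of double-marked sites peaks at the summit in both rows (7.65% and 38.4%), and the TRIM28 curve does so in the lower row.

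The share of double-marked sites with a shARID1A H3K9me3 peak differed with the shCtrl SETDB1 fold. Split into 5 groups by shCtrl SETDB1 fold, from low to high, 10.5%, 8.64%, 12.9%, 15.4% and 26.6% had a shARID1A H3K9me3 peak against input. By shCtrl H3K9me3 fold the lowest and highest groups had 10.7% and 22.3%, and by ARID1A width 9.62% and 21.1%. For TRIM28 of shARID1A cells the lowest and highest groups by SETDB1 fold had 5.65% and 5.14%, with overlapping intervals, and by ARID1A width 3.06% and 7.27%. For SETDB1 of shARID1A cells they had 1.63% and 3.85% by SETDB1 fold, and 1.62% and 3.51% by ARID1A width. A wider site has more bases in which to meet a peak of any library. The groups use values of the libraries that chose the sites, so these shares are a description. ARID1A width and shCtrl SETDB1 fold had a Spearman correlation of 0.14 across the 5842 sites.

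**Figure D5:**
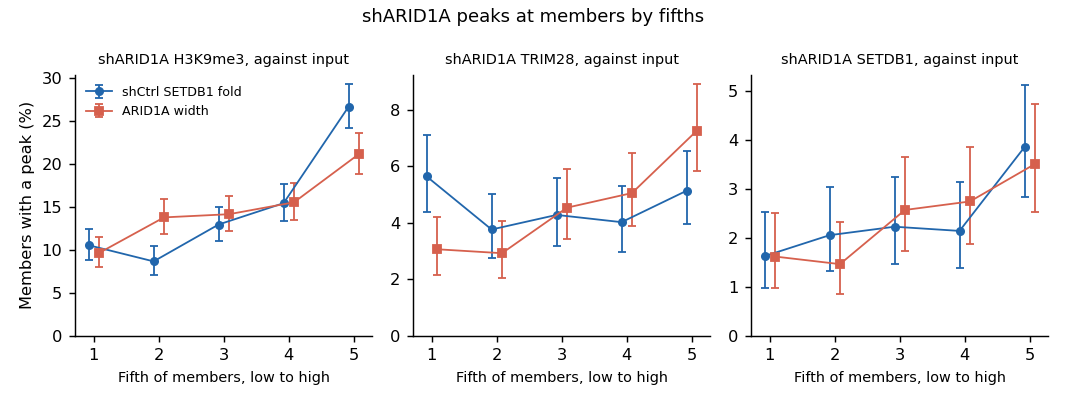
Share (%) of double-marked sites with a shARID1A peak against input, in 5 groups from low to high shCtrl SETDB1 fold (blue) and ARID1A width (red). Lines are exact 95% intervals, and the H3K9me3 share reaches 26.6% in the group of highest SETDB1 fold.

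ARID1A itself was called again in shCtrl cells at 1880 double-marked sites (32.2%, 31.0% to 33.4%) and at 8.70% of other sites, against 13.3% of all, a difference of 23.5 points (22.2 to 24.7). That library is taken to share its input with the shCtrl lists of the rule. Of its 108926 peaks against input 43 were strong, and a strong peak lay at 5 double-marked sites (0.0856%) and at 0.0126% of other sites. Strong peaks against input were also few for shCtrl TRIM28 (25 of 70447), unmodified TRIM28 (67 of 32927) and unmodified H3K9me3 (15 of 11374). TRIM28 of shCtrl cells, taken to have the same input as shCtrl ARID1A, was at 9.83% of double-marked and 4.06% of other sites (5.2% of all), a difference of 5.77 points (4.99 to 6.59). Against IgG it was at 14.7% and 8.35% (9.61% of all). TRIM28 of unmodified cells, which is taken to share its input with the ARID1A list, was at 9.53% and 5.32% (6.15% of all), a difference of 4.21 points (3.43 to 5.04). That last difference was 1.56 points (0.55 to 2.56) within 5 groups by width and -0.76 points where the peak had to cover 50% of the site. Against IgG the shares were 3.46% and 2.39% (2.6% of all). Against input, sites with SETDB1 only had 9.23%, and double-marked minus SETDB1 only was 0.30 points (-1.06 to 1.59). H3K9me3 of unmodified cells was at 130 double-marked sites (2.23%), against 2.31% of all ARID1A sites. None of these was strong, and 5 other ARID1A sites (0.0211%) had a strong peak of unmodified H3K9me3. Against IgG, unmodified H3K9me3 was at 28 double-marked sites (0.479%), against 0.646% of all ARID1A sites. For the shCtrl ARID1A list against IgG the shares were 44.9% and 17.3% (22.7% of all).

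Most double-marked sites lay inside genes and far from gene starts. A gene body extended by 1000 bp held 4334 of them (74.2%, 73.0% to 75.3%), 70.6% of other ARID1A sites and 71.3% of all, a difference of 3.57 points (2.30 to 4.82). Within 5 groups by width, in which widths still differed, it was -0.55 points (-2.01 to 0.92), an interval that holds 0. Sites with H3K9me3 only were in a gene body in 80.2% of cases, and the difference of double-marked sites from them was -6.00 points (-7.97 to -3.97). Of 5420 sites on chromosomes with usable starts, 301 were within 1000 bp of a start (5.55%), against 4.53% of other sites and 4.75% of all, a difference of 1.02 points (0.37 to 1.72). Within the groups by width this was 0.20 points (-0.64 to 1.04). The median distance to a start was 29.9 kb, and 32.6 kb for other sites. Sites with SETDB1 only were at a start in 11.7% of cases, 6.13 points above double-marked sites (double-marked minus SETDB1 only -6.13, -7.59 to -4.76). Double-marked sites at starts, in gene bodies away from starts and between genes had a shARID1A H3K9me3 peak in 14%, 14.1% and 16.5% of cases. For other ARID1A sites in the same places the shares were 7.91%, 2.52% and 3.09%.

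By chromosome, 11.9% of the 3537 ARID1A sites on chromosome 8 were double-marked (422 sites, 10.9% to 13.0%). On the other autosomes the share ran from 18.5% on chromosome 10 to 28.8% on chromosome 21, and on X it was 13 of 30. Chromosome 8 held 12% of all ARID1A sites and 7.22% of the double-marked ones. Its double-marked sites had a median width of 679.5 bp, and 16.1% had a shARID1A H3K9me3 peak. Of the 5842, 2514 (43.0%) lay within 10000 bp of another double-marked site, and 28.1% of other ARID1A sites lay as near to a double-marked one. Any other ARID1A site was that near for 75.7% of double-marked sites, 54.0% of other sites and 58.3% of all. Neighbouring double-marked sites formed 891 stretches, of which 79 held at least 5. The fullest held 20 sites in 61.4 kb of chromosome 11, next came 18 in PCDH7 and 15 in VTI1A.

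At least 1 double-marked site lay in 1743 of 19970 protein-coding genes (8.73%). These genes were long, with a median of 118.5 kb against 24.2 kb over all. PCDH7, a cell adhesion protocadherin, held the most, 50 of its 160 ARID1A sites, and 4 of the 50 had shARID1A H3K9me3 against input and 25 against IgG (14.8% and 64.3% over all double-marked sites). VTI1A, a SNARE protein of vesicle transport, held 30 of 120. PPP3CA, the catalytic subunit of calcineurin, held 28 of 84. ZBTB20, a zinc finger repressor, held 27 of 85, none with shARID1A H3K9me3 against input and 14 against IgG. NSMCE2, a SUMO ligase of the SMC5/6 complex, held 25 of 115, the widest of them 4577 bp. Over all ARID1A sites 19.8% were double-marked. A shARID1A H3K9me3 peak against input lay at 5 of the 30 in VTI1A, 1 of the 28 in PPP3CA and 3 of the 25 in NSMCE2. Against IgG it was 17, 13 and 13.

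The double-marked site with the highest ARID1A fold (8.43) lay in TANC2, a scaffold protein of synapses, at chr17:63274345-63276502, 138975 bp from a start. It had folds of 8.73 for shCtrl H3K9me3, 6.58 for shCtrl SETDB1 and 3.19 for shARID1A H3K9me3, with no shARID1A TRIM28 or SETDB1 peak against input. OLA1, an ATPase of the Obg family, followed with an ARID1A fold of 7.56, shCtrl folds of 11.4 and 7.23, and no shARID1A peak against input. PCCA, a subunit of propionyl-CoA carboxylase, had 7.34 for ARID1A and 14.1 for shCtrl H3K9me3. ARHGAP18 had 7.12. PARD3, a cell polarity scaffold, had 6.90. MACF1, which links microtubules to actin, had 6.88 for ARID1A, 12.8 for shCtrl SETDB1 and 2.84 for shARID1A H3K9me3. The others were LOC105373910, GSDMC, a gasdermin, SYTL2, a protein of vesicle traffic, and DNMBP.

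The tallest shCtrl SETDB1 peak at a double-marked site (fold 40.8) lay between genes. Inside genes, ARHGAP26 had an 830 bp site with folds of 19.2 for shCtrl SETDB1, 10.2 for shCtrl H3K9me3 and 3.5 for shARID1A H3K9me3. PDGFC, a growth factor of the platelet-derived family, had 17.3, 9.87 and 2.26 at a 789 bp site. The lncRNA LOC105370364 had 19.4 for shCtrl SETDB1 at a 411 bp site. It was also 1 of the 16 sites with all 3 shARID1A libraries against input, at folds of 9.18 for H3K9me3, 2.35 for TRIM28 and 5.6 for SETDB1. By shCtrl H3K9me3, RBBP8, a DNA end resection factor, had 16.0, MBNL2, a splicing regulator, had 15.4 and OSER1 had 15.2. RBBP8 had a shARID1A H3K9me3 fold of 4.10, and MBNL2 and OSER1 had no such peak against input and folds of 2.79 and 2.68 against IgG.

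Folds of the 3 shARID1A libraries against input are given for sites at which all 3 had a peak. COL12A1, a collagen chain, had folds of 5.57 for H3K9me3, 2.15 for TRIM28 and 3.46 for SETDB1 in shARID1A cells. HS3ST1, which sulfates heparan chains, had 4.19, 2.86 and 3.73 at a site 522 bp from its start. HIPK2, a stress kinase, had 3.66, 2.49 and 3.37. CDK6, a kinase of the G1 phase, had 3.49, 2.29 and 2.45. LRMDA, PCNX1, DCBLD2, NSMCE2 and LOC105373910 complete the 10 with the highest SETDB1 fold.

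Genes of adhesion and the cytoskeleton held double-marked sites most often among 9 gene lists. In that list 21 of 32 genes held 1 or more (65.6%), against 8.73% of all protein-coding genes, and the median length of its genes was 81.5 kb. Any ARID1A site lay in 26 of the 32, against 25.8% of all protein-coding genes. CD44, a hyaluronan receptor, had a 2420 bp site with an ARID1A fold of 5.14. ANXA2, a membrane-binding annexin, had 5.36, ITGB5, an integrin chain, 4.93, CDH1, which encodes E-cadherin, 4.65 and LAMB3, a laminin chain, 4.27. Of the 59 sites in this list, 11 had shARID1A H3K9me3 against input and 45 against IgG, beside 14.8% and 64.3% of all double-marked sites. None of the named 5 sites was among the 11. The lists were written with earlier results of these data known, and long genes have more room for a site, so these counts are a description.

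The list of Hippo, AP-1 and MET pathway genes held double-marked sites in 11 of 27 genes (40.7%), against 8.73% of all protein-coding genes. Any ARID1A site lay in 16 of the 27, against 25.8% of all protein-coding genes. The median length of the listed genes was 55.4 kb, against 24.2 kb over all. WWTR1, the YAP partner TAZ, had an ARID1A fold of 6.24 at a 3724 bp site, with 8.76 for shCtrl H3K9me3 and 5.61 for shCtrl SETDB1. MET, the hepatocyte growth factor receptor, had 6.24, 11.7 and 6.12 at a 2814 bp site. TEAD1, the DNA-binding partner of YAP and TAZ, had 5.58, 10.2 and 7.55. None of these 3 had shARID1A H3K9me3 against input. Against IgG it was 3.21 in WWTR1 and 4.12 in TEAD1, with none in MET. TEAD1 alone of the 3 had shARID1A TRIM28 against input, at a fold of 1.81. Of the 42 sites in this list, 2 had shARID1A H3K9me3 against input and 18 against IgG, where 14.8% and 64.3% of all double-marked sites did.

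Among EGFR and MAPK signalling genes (median length 43.1 kb), 9 of 28 held a double-marked site (32.1%), and 18 held any ARID1A site. Over all protein-coding genes these shares were 8.73% and 25.8%, with a median length of 24.2 kb. EREG, an EGFR ligand, had an ARID1A fold of 3.80, EGFR itself 2.97 and DUSP6, a phosphatase of ERK, 2.95. SPRED2, an inhibitor of RAS signalling, was the one of the 5 highest with shARID1A H3K9me3 against input, at 2.17. In the TGF-beta and BMP list (median length 54.8 kb) 8 of 25 genes held a double-marked site (32%), and 15 held any ARID1A site. TGFBR2, the type II receptor, had 5.14 at a 2146 bp site, and SMAD3 had 4.88. In the intestinal and WNT list (median length 37.8 kb) 8 of 30 genes held a double-marked site (26.7%), and 17 held any ARID1A site. TCF7L2, the main WNT effector on DNA in the gut, had a 4579 bp site of fold 5.27. RNF43, which removes WNT receptors, had 10 double-marked sites among its 30 ARID1A sites in 65.0 kb, the highest at 5.26. MYC had 3.3 for ARID1A and 2.79 for shARID1A H3K9me3.

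In the remaining lists 1 or 2 genes held a double-marked site. It was 2 of 25 p53 targets (8%, XPC and GADD45A) and 2 of 28 SWI/SNF subunit genes (7.14%), both near the 8.73% of all protein-coding genes. Any ARID1A site lay in 10 of the 25 and 7 of the 28, against 25.8% of all protein-coding genes. Median gene lengths were 24.8 kb and 45.6 kb. The SWI/SNF genes were PBRM1 with an ARID1A fold of 4.61 and ARID1B with 3.17. In the list of heterochromatin writers and readers (median length 53.05 kb) it was 1 of 28 (3.57%), and 9 held any ARID1A site. The gene was KDM4C, an H3K9 demethylase, with 3.17 for ARID1A, 5.34 for shARID1A H3K9me3 and 2.97 for shARID1A TRIM28 against input. In the list of interferon and RNA sensing genes (median length 29.7 kb) it was 1 of 30 (3.33%), and 9 held any ARID1A site. The gene was JAK1, with 4.05 for ARID1A.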

How the data were processed

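ChIP-seq peak lists of 10 libraries in HCT116 cells were used, each called by the authors against input and against IgG (20 lists). The submitters' processing notes list the aligner Bowtie2 (2.2.5), the peak caller MACS2 (2.2.7.1), FastQC (0.11.9), ChIPseeker, deepTools (3.5.1) and the build hg38 (GRCh38), and options are not stated. Peaks are per library. The control of a list was read from its name, since no label states it. The deposited fold enrichment is the authors' ratio of pileup to local background. The deposited −log10 p and −log10 q values come from the same call, and lists reach down to an unadjusted p of about 0.05. The deposited score column was not used.

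Overlaps were counted in Python 3.11.15 with pandas 2.3.3 and numpy 2.4.6, and intervals with scipy 1.17.1. Counting was tested on simulated peaks. Gene bodies, names and promoter windows came from RefSeq tables of GRCh38.p14. No genome sequence was used. Members, gene lists and tests were chosen with earlier results of these data known. Within a gene body, 1 site per gene was named: the 10 with the highest ARID1A fold, the 5 highest for each shCtrl library, up to 10 with all 3 shARID1A libraries, the 5 genes with most sites and up to 5 genes per list. A gene that this rule names is not reported here. Alternatives changed the control, q, overlap, window, width and fold strata and the member rule.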

Additional observations from a re-analysis of the deposited data

Results flagged for a closer look

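These values are differences between cell states in the excess of peaks at double-marked over other ARID1A sites, in percentage points and against input. Each state is 1 library, and the intervals cover counting error only. The lists differ in length, from 11374 to 203714 peaks, so values from the top 10000 peaks of each list are given too, chosen after seeing the data. Strong peaks were 15 of 11374 for unmodified H3K9me3 and 12115 of 56886 for shARID1A H3K9me3. For TRIM28 they were 67 of 32927 in unmodified, 25 of 70447 in shCtrl and 2119 of 203714 in shARID1A cells. For H3K9me3, the excess was 12.05 points larger in shARID1A than in unmodified cells (11.0 to 13.1), 49.1 larger with lists against IgG and 2.53 larger (1.94 to 3.12) with the top 10000 peaks. For TRIM28, the excess in shARID1A minus that in unmodified cells was -4.42 (-5.42 to -3.43), and shARID1A minus shCtrl was -5.98 (-6.96 to -5.00). With the top 10000 peaks these were -1.51 and -1.12, and with lists against IgG both turned, to 20.3 and 15.0. The TRIM28 excess in shCtrl was 1.56 points above that in unmodified cells (0.44 to 2.67) and 5.31 above it with IgG. With the top 10000 peaks it turned to -0.39 (-0.98 to 0.20). The shCtrl and unmodified lists are taken to share an input with lists of the rule and the shARID1A lists are not, and this cannot be told apart from the cell state.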

How the results depend on the processing

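Differences are percentage points, double-marked minus other ARID1A sites. The excess of shARID1A H3K9me3, shCtrl ARID1A and shCtrl TRIM28 kept its direction and an interval without 0 under all 14 alternatives each, 4 of which were chosen after seeing the data. The alternative with strong peaks rested on very few sites for the shCtrl libraries. For shCtrl TRIM28 these were 2 double-marked and 0 other sites, and for shCtrl ARID1A 5 and 3. For shARID1A H3K9me3 the excess ran from 2.48 (top 10000 peaks) to 48.9 (IgG).

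For shARID1A TRIM28 the sign turned with lists against IgG (21.4, in a 200 bp summit window 10.3, within groups by width 14.6). It also turned within groups of ARID1A fold (0.0087), with sites met in lists of both controls (0.15) and without shCtrl H3K9me3 in the rule (0.30). The difference stayed below 0, with an interval that left 0 out, for strong peaks (-0.076), 50% coverage (-1.35) and the summit window (-1.41). The same held within groups by width (-0.76) and for sites from IgG lists (-1.11). For shARID1A SETDB1 the interval held 0 with 50% coverage (0.030) and the summit window (0.16). Unmodified TRIM28 turned for strong peaks (-0.029) and 50% coverage (-0.76) and was 0.025 with IgG and the summit window. Unmodified H3K9me3 turned with sites from IgG lists (0.41), without shCtrl H3K9me3 (0.53) and without shCtrl SETDB1 (0.0090). Its interval left 0 out with 50% coverage (-0.79), the summit window (-0.85), groups by width (-1.15), groups by ARID1A fold (-0.67) and IgG with the summit window (-0.39). Within the groups by width the excess in gene bodies turned to -0.55 and that at starts was 0.20. The number of sites was 2912 where each shCtrl peak had to cover 50% of the ARID1A peak. The cause of these changes was not tested. No paired analysis was possible because each group holds 1 library. Depth is unknown, so an absent peak may be a limit of depth.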
